A study of Ovis aries with 2 samples.

Results

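The mural cells of lambskin, those with genes of vascular smooth muscle and pericytes, were examined in 2 single-cell RNA-seq libraries. A cell was taken as a member when it held at least 1 unique molecular identifier (UMI, 1 counted RNA molecule) of at least 2 of the genes DES, RGS5, NOTCH3, PDGFRB and MYH11, at least 5 UMIs of ACTA2 per 10000 UMIs of the cell, fewer than 10 UMIs of KRT5 per 10000, and fewer than 3 of the endothelial genes PECAM1, CDH5, CLDN5, EMCN, EGFL7 and KDR. By this rule 125 of 14037 cells were members, 39 of 6452 cells from straight wool and 86 of 7585 cells from curly wool. The skin came from the body side of Hu sheep at day 3 after birth, and the 2 groups differed in the form of the wool, which the labels call straight in one and waved or curly in the other. Skin of 3 lambs was pooled in each group. Cells from dissected hair follicles and from whole skin were mixed before capture on the 10x Genomics platform. Each wool type is therefore 1 library of pooled lambs, with no replicate. No test between wool types was possible, the difference between the lambs of a pool cannot be seen, and the wool type cannot be told apart from the library. The intervals below are exact 95% intervals that cover counting error only.

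Mural cells lie on the outside of blood vessels. Smooth muscle cells surround arteries, arterioles and veins and shorten through actin, myosin and their regulators, whereas pericytes sit on capillaries inside the basement membrane that they share with the endothelium. Notch signals from endothelial cells and platelet-derived growth factor received by PDGFRB guide the recruitment and maturation of both. In skin, smooth muscle is also found outside vessels, in the muscle that raises the hair, and the contractile cells around sweat glands express many of the same genes together with basal keratins.

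The 2 libraries held 57956122 and 77634565 UMIs, with a median of 7374 per cell in straight and 7495 in curly wool. Mural cells were shallower, with a median of 4395 UMIs in straight wool (1924 to 14817) and 5107 in curly wool (874 to 31473), and together gave 209546 and 497192 UMIs. The libraries shared 70 barcode sequences, of which 0 belonged to a mural cell. In curly wool, 3 of the 86 mural cells held at least 100 UMIs of the keratinocyte genes KRTDAP, SBSN, DMKN, KRT35 and CST6 together. The largest of them had 31473 UMIs, of which 1442 were KRTDAP and 2360 were CST6, beside 58 UMIs of ACTA2. Straight wool had 0 such cells among 39. The counts below are also given without these 3 cells, which hold 60468 of the 288135 UMIs of the DES-low cells described further on. Without them mural cells were 1.09% of curly wool cells.

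The genes of the rule are given as a description. ACTA2, the actin of smooth muscle, had its lowest value in a member at 6 per 10000 in straight and 5.07 in curly wool, its median at 29.4 and 41.1, and its highest at 116 and 198. Just outside the limit, the cells that met every other condition reached 4.55 and 3.26 per 10000. The ACTA2 limit alone left out 88 straight wool and 94 curly wool cells, of which 78 and 81 held no ACTA2 UMI, and 26 and 19 of those left out had RGS5. The KRT5 limit alone left out 6 and 32 cells, and the count of mural genes alone left out 13 and 24. Exactly 2 of the 5 mural genes were found in 11 of the 39 and 46 of the 86 members. DES, which encodes the muscle intermediate filament desmin, had a UMI in 34 of 39 and 63 of 86 members. MYH11, the smooth muscle myosin heavy chain, had one in 30 and 72, and the receptor NOTCH3 in 24 and 51. PDGFRB was found in 8 and 13. In KRT5-positive keratinocytes a UMI was found in 0.848% and 1.33% of cells for DES, in 1.72% and 4.08% for MYH11 and in 12.9% and 15.6% for NOTCH3. RGS5, a regulator of G protein signals that marks pericytes, had a UMI in 28 of 39 straight wool members (71.8%, 55.1 to 85) and in 20 of 86 curly wool members (23.3%, 14.8 to 33.6). Among these keratinocytes, which should lack the gene and had median depths of 7616 and 6427 UMIs, RGS5 was found in 0.739% and 0.379% of cells.

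Contractile and pericyte genes that the rule did not use were higher in the summed mural cells than in the other cells of both libraries, while the genes of leukocytes, glia and melanocytes were at or near 0 and matrix genes shared with fibroblasts were not. Levels are counts per 1000000 UMIs (CPM) summed over the members of a library, and 883 genes with at least 100 UMIs over all members were compared. Of these, 123 (13.9%) were at least 4-fold higher in mural cells than in all other cells of the same library, in both libraries, and 15 (1.7%) were at least 4-fold lower in both. These were 120 and 14 of 803 without the 3 keratinocyte-rich cells. Among the contractile genes, 15 of the 16 compared that the rule did not use were at least 4-fold higher, with a median log2 difference of 3.61 in straight and 4.03 in curly wool, beside 0.21 and 0.16 over all genes compared that the rule did not use. Among pericyte genes, 4 of the 6 that the rule did not use were higher. A summed level does not describe every member, as HIGD1B had a UMI in 29 of 39 straight wool and 24 of 86 curly wool members, and NDUFA4L2 in 25 and 14. Since the members were chosen by measured values, these counts are a description.

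The 15 genes with the largest excess in mural cells, leaving out those of the rule, covered calcium handling, muscle, matrix and pericyte genes. TCAP, the titin cap protein, was at 558 CPM in the straight and 925 CPM in curly wool mural cells and at 1.44 and 2.39 CPM in all other cells. PLN, phospholamban, the inhibitor of the calcium pump of the sarcoplasmic reticulum, was at 558 and 1609 CPM against 2.74 and 5.06. SNCG, gamma-synuclein, was at 864 and 1706 CPM against 4.31 and 4.77. All 3 were thus low in the remaining cells of the skin. MUSTN1, RBPMS2, SH3BGR, PTP4A3, S100A4 and MCAM, the last a cell adhesion molecule of vessel walls, were also in this group. HIGD1B, a mitochondrial protein of pericytes, was at 749 and 237 CPM against 2.08 and 1.96 CPM. GJA4, the gap junction protein connexin 37, was at 315 and 195 CPM against 4.57 and 3.23. GUCY1B1, a subunit of the nitric oxide receptor guanylate cyclase, was at 282 and 121 CPM against 2.94 and 2.57. The small leucine-rich proteins ASPN, OGN and ECM2 completed the list, with 368 and 249 CPM for ASPN against 3.00 and 1.35 in other cells.

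Matrix genes formed the second large group. Of 18 basement membrane and matrix genes, 10 were at least 4-fold higher in both libraries (13.9% of 883 genes), with medians of 3.10 and 2.85. MGP, a matrix protein that inhibits calcification of vessel walls, was at 11033 CPM in the straight and 7625 CPM in curly wool mural cells, against 360 and 424 CPM elsewhere. COL4A1, a chain of the basement membrane collagen, was at 687 and 376 CPM against 52.4 and 42.9. The vasoactive list held 53 genes, of which 48 were in the table and 4 passed 100 UMIs. Those of the 4 outside the rule were the endothelin receptor EDNRA, PLN and GUCY1B1, and all 3 were at least 4-fold higher in both libraries. EDNRA was at 325 and 266 CPM in mural cells and at 43.6 and 31.4 CPM in other cells. In the Notch list, 2 of 23 genes passed 100 UMIs, and the target HES1 was higher by a log2 of 1.01 and 0.22. The TGF-beta list had 1 of 4 genes at least 4-fold higher. None of the 12 cycle genes and none of the 19 vascular ligands and receptors, such as ANGPT1 and VEGFA, passed 100 UMIs.

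Other cell types were represented unequally. Of the 8 endothelial genes, 6 are those by which the rule leaves cells out, so their low level is no finding, and outside the rule the list tests ESAM and TIE1 alone. The list summed to 248 CPM in the straight and 129 CPM in curly wool. Nearly all of this was ESAM, an adhesion molecule, at 243 and 127 CPM, with a UMI in 59.0% and 44.2% of members. Leukocyte genes summed to 19.1 and 10.1 CPM with 2 of 5 genes at 0 in each library, glial genes to 4.77 and 26.1 CPM with 3 of 4 at 0, and melanocyte genes to 0 CPM. PDGFRA, a fibroblast receptor, had 1 UMI in straight and 0 in curly wool mural cells, whereas the collagens COL1A1 and COL3A1 and the proteoglycan LUM, which are on the same list, were found in 59.0%, 79.5% and 79.5% of the straight wool members, against 11.1%, 5.94% and 2.24% of keratinocytes. The 8 genes of the fibroblast or papilla list summed to 2816 CPM (375 to 10551 in single cells) in the straight and 867 CPM (0 to 5058) in curly wool, with 0 and 2 genes at 0. Keratinocyte RNA was present. CST6 had a UMI in 36 of 39 and 86 of 86 members, and KRT14, a basal keratin, was at 258 and 410 CPM, against 6178 and 7246 CPM in all other cells. Its part in the results was not tested. The inner root sheath genes summed to 172 and 563 CPM, with 2 of 2 compared at least 4-fold lower than elsewhere in both libraries. The list of dermal sheath genes held ACTA1, ACTA2 and CORIN, of which ACTA2 is a gene of the rule. ACTA1 was at 105 and 159 CPM, against 5.0 and 4.1 CPM in all other cells, with a UMI in 4 and 17 members. CORIN had 0 UMIs in each library, which allows 14.3 CPM in the straight and 6.03 CPM in curly wool (3 UMIs per library).

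**Figure D1:**
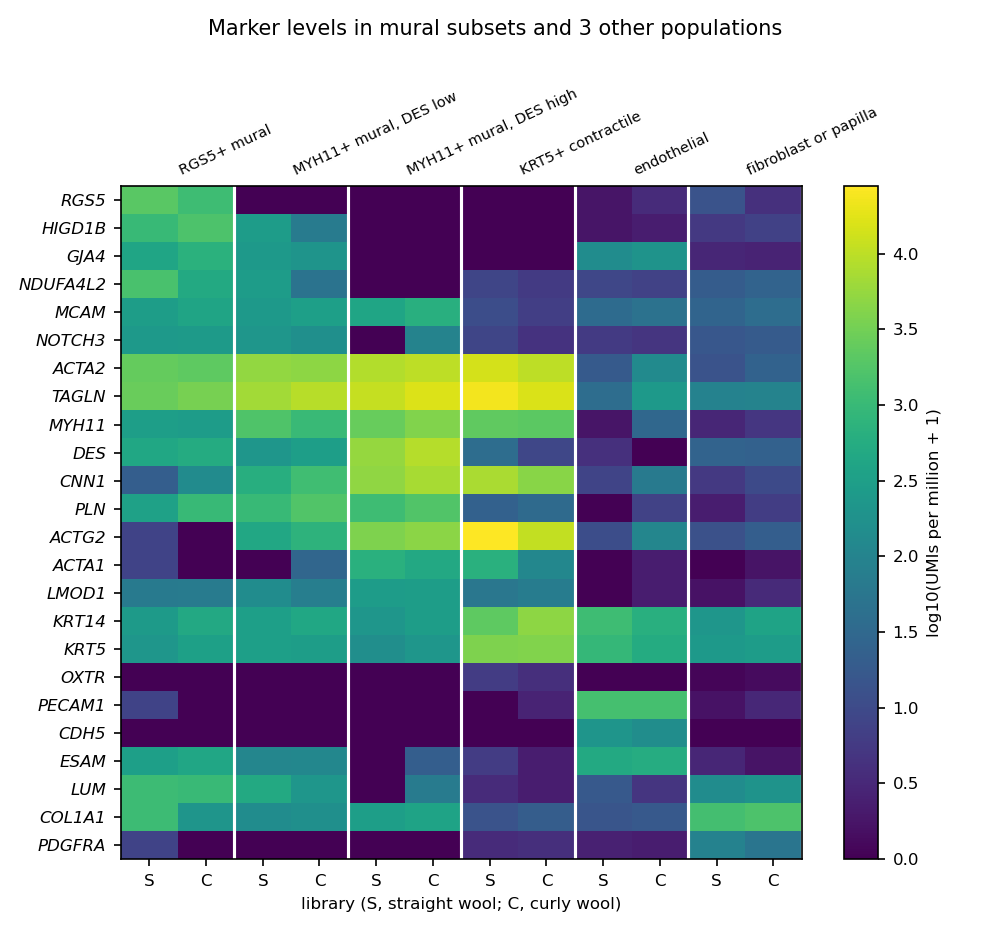
Levels of 24 genes as log10(CPM + 1), from UMIs summed over the cells of a population and library. Columns are 3 subsets of mural cells (RGS5-positive; MYH11-positive without RGS5, divided by DES) and KRT5-positive contractile, endothelial and fibroblast or papilla cells, with the straight wool (S) and curly wool (C) library side by side. RGS5, NOTCH3, ACTA2, MYH11, DES, ACTG2, KRT5, PECAM1, CDH5, LUM, COL1A1 and PDGFRA chose, left out or divided the populations. Their patterns are no finding. PLN, which no population was chosen by, was at 22.9 and 34.1 CPM in KRT5-positive contractile cells.

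Against KRT5-positive contractile cells, the 44 straight wool and 243 curly wool cells that express ACTG2 together with KRT5, mural cells had less TAGLN and more PLN. Of 20 contractile genes outside the rule, 2 were at least 2-fold lower and 0 higher in both libraries, beside 11% and 5.06% of 3479 genes. The list's medians were -1.71 in straight and -0.19 in curly wool. Of 7 pericyte genes outside the rule, 6 were higher and 0 lower, with medians of 7.16 and 6.21. TAGLN, the actin-binding protein transgelin, was at 4534 and 10656 CPM in mural cells and at 23674 and 15895 CPM in KRT5-positive contractile cells. PLN was at 22.9 and 34.1 CPM in KRT5-positive contractile cells, far below the 558 and 1609 CPM of mural cells. ACTG2, the enteric actin, by which together with KRT5 those cells were chosen, is a description here, with 659 and 1818 CPM in mural cells and 27873 and 10984 CPM in KRT5-positive contractile cells. DES, used by the rule for mural cells and not for the others, was at 38.1 and 7.76 CPM there. The marker heat map shows this pattern in both libraries. Against fibroblast or papilla cells (1196 and 568 cells), COL1A1 was lower in mural cells, at 840 and 237 CPM against 1295 and 1598, while LUM was higher, at 873 and 260 CPM against 146 and 191. Both are among the 8 genes by which fibroblast or papilla cells were chosen, so these values are a description.

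Mural cells fell into subsets by the detection of RGS5 and MYH11. RGS5 without MYH11 was found in 8 straight wool and 12 curly wool members, both genes in 20 and 8, MYH11 without RGS5 in 10 and 64, and neither in 1 and 2. For the comparisons below, all cells with RGS5 are called RGS5-positive (28 and 20), and cells with MYH11 and no RGS5 are called MYH11-positive (10 and 64). MYH11-positive cells made up 25.6% of straight wool members (13 to 42.1) and 74.4% of curly wool members (63.9 to 83.2). As RGS5-positive cells had fewer UMIs (median 4088 and 2849) than MYH11-positive cells (5229 and 5778), each member was also thinned to 2000 UMIs, which left 38 and 71 cells. RGS5 was then found in 68.4% of straight wool and 15.5% of curly wool members, and MYH11 without RGS5 in 21.1% and 74.6%. The order of the libraries was the same after thinning.

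In shares of all cells, mural cells were 0.604% of straight wool (0.43 to 0.825) and 1.13% of curly wool (0.908 to 1.4). RGS5-positive cells were 0.434% (0.289 to 0.627) and 0.264% (0.161 to 0.407), with overlapping intervals. MYH11-positive cells were 0.155% (0.0743 to 0.285) and 0.844% (0.65 to 1.08), intervals that did not overlap. A share of cells depends on how the 2 suspensions were mixed, which cannot be told apart from the wool type, and after thinning to 2000 UMIs before the rule was applied the shares were 0.554% and 0.76%. With at least 3 of 5 mural genes they were 0.434% and 0.527%, and with the study's minimum number of genes per cell 0.328% and 0.509%.

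**Figure D2:**
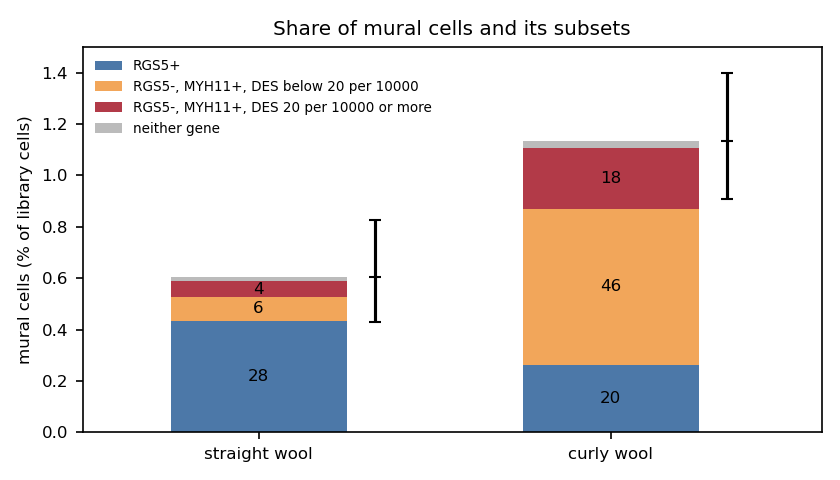
Mural cells as a percentage of all cells of each library, stacked by subset, with the number of cells printed in the bars. Black bars beside the columns are exact 95% binomial intervals of the total, 0.604% in straight and 1.13% in curly wool. RGS5-positive cells numbered 28 and 20, and MYH11-positive cells with low DES numbered 6 and 46.

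The contractile genes separated the subsets in the same way in both libraries. Of 20 contractile genes compared, 16 were at least 2-fold lower in RGS5-positive than in MYH11-positive cells in both libraries (6.73% of 877 genes compared), and 0 were higher. ACTA2, ACTG2, DES and MYH11 are genes of the rule or of the subsets, and of the 16 compared without them 12 were lower in both libraries. With the 3 keratinocyte-rich cells left out 16 of 20 were lower, among 38 genes higher and 52 lower of 787. The median log2 difference of the list was -1.99 in straight and -2.49 in curly wool, beside 0.12 and -0.00 over all genes, and is the same with ACTG2 at its upper limit. The subsets were formed by measured values, so the counts are a description. CNN1, calponin, which binds actin and restrains myosin, was at 20.4 CPM (4.21 to 59.7) in straight wool and 140 CPM (60.6 to 277) in curly wool RGS5-positive cells. In MYH11-positive cells it was at 2999 CPM (2577 to 3471) and 3270 CPM (3102 to 3445). It had a UMI in 3 of 28 and 6 of 20 RGS5-positive cells, in 9 of 10 and 61 of 64 MYH11-positive cells, and in 3.89% and 9.74% of keratinocytes. ACTG2 had 1 UMI in all straight wool and 0 in all curly wool RGS5-positive cells, against 2283 and 2083 CPM in MYH11-positive cells. ACTA2, which every member had to express, was at 2477 and 2159 CPM in RGS5-positive and 7148 and 6559 CPM in MYH11-positive cells. TAGLN had log2 differences of -1.79 and -1.78, and MYL9, the regulatory light chain, of -1.95 and -2.60, each against MYH11-positive cells. PLN, in contrast with the contractile filaments, passed the 2-fold limit in straight wool only, with log2 differences of -1.66 and -0.80.

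Pericyte genes went in the opposite direction. Of 8 compared, 5 were at least 2-fold higher in RGS5-positive cells in both libraries (5.02% of 877), 1 of which was RGS5 itself, which defines the subset. The other 4 were HIGD1B, NDUFA4L2, GJA4 and the transcription factor EBF1. HIGD1B was at 980 CPM (827 to 1154) and 1615 CPM (1302 to 1980) in RGS5-positive cells and at 133 CPM (57.6 to 263) and 46.1 CPM (28.2 to 71.2) in MYH11-positive cells. It was detected in 26 of 28 and 15 of 20 RGS5-positive cells but in 2 of 10 and 8 of 64 MYH11-positive cells, and in 0.411% and 0.498% of keratinocytes. NDUFA4L2, a hypoxia-induced mitochondrial protein, was higher by a log2 of 3.46 and 3.93, and GJA4 by 1.78 and 2.36. MCAM did not separate the subsets, with log2 differences of -0.19 and -0.13. The Notch target HES1 was higher by 1.82 and 1.44, and NOTCH3, used by the rule, by 1.29 and 0.93. The intervals of NOTCH3 overlapped, with 245 CPM (172 to 339) and 263 CPM (147 to 434) in RGS5-positive and 100 CPM (36.7 to 218) and 138 CPM (106 to 178) in MYH11-positive cells. PDGFA, a ligand of the platelet-derived growth factor family, was at 320 CPM (235 to 425) and 228 CPM (122 to 390) in RGS5-positive cells. In MYH11-positive cells it had 3 UMIs in straight wool (10.3 to 146 CPM) and was at 87.6 CPM (62 to 120) in curly wool. GUCY1B1 was higher by 2.09 and 2.08, while EDNRA differed by 0.50 and 1.71.

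APOE, an apolipoprotein, was at 7459 CPM in the straight and 7214 CPM in curly wool RGS5-positive cells and at 1100 and 636 CPM in MYH11-positive cells. LUM was likewise at 1123 and 1018 CPM against 233 and 164 CPM. The collagens did not share this pattern. COL1A1 was at 1102 CPM in straight wool RGS5-positive cells and at 211 CPM in curly wool ones, beside 233 and 235 CPM in MYH11-positive cells, and COL4A2 was at 755 and 70.2 CPM beside 250 and 274 CPM. THY1, a surface protein of pericytes and fibroblasts, had 72 UMIs in 9 straight wool RGS5-positive cells and 1 UMI in curly wool ones. COL1A1 is also on the fibroblast list, and whether fibroblast RNA has a part in its straight wool level was not tested.

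**Figure D3:**
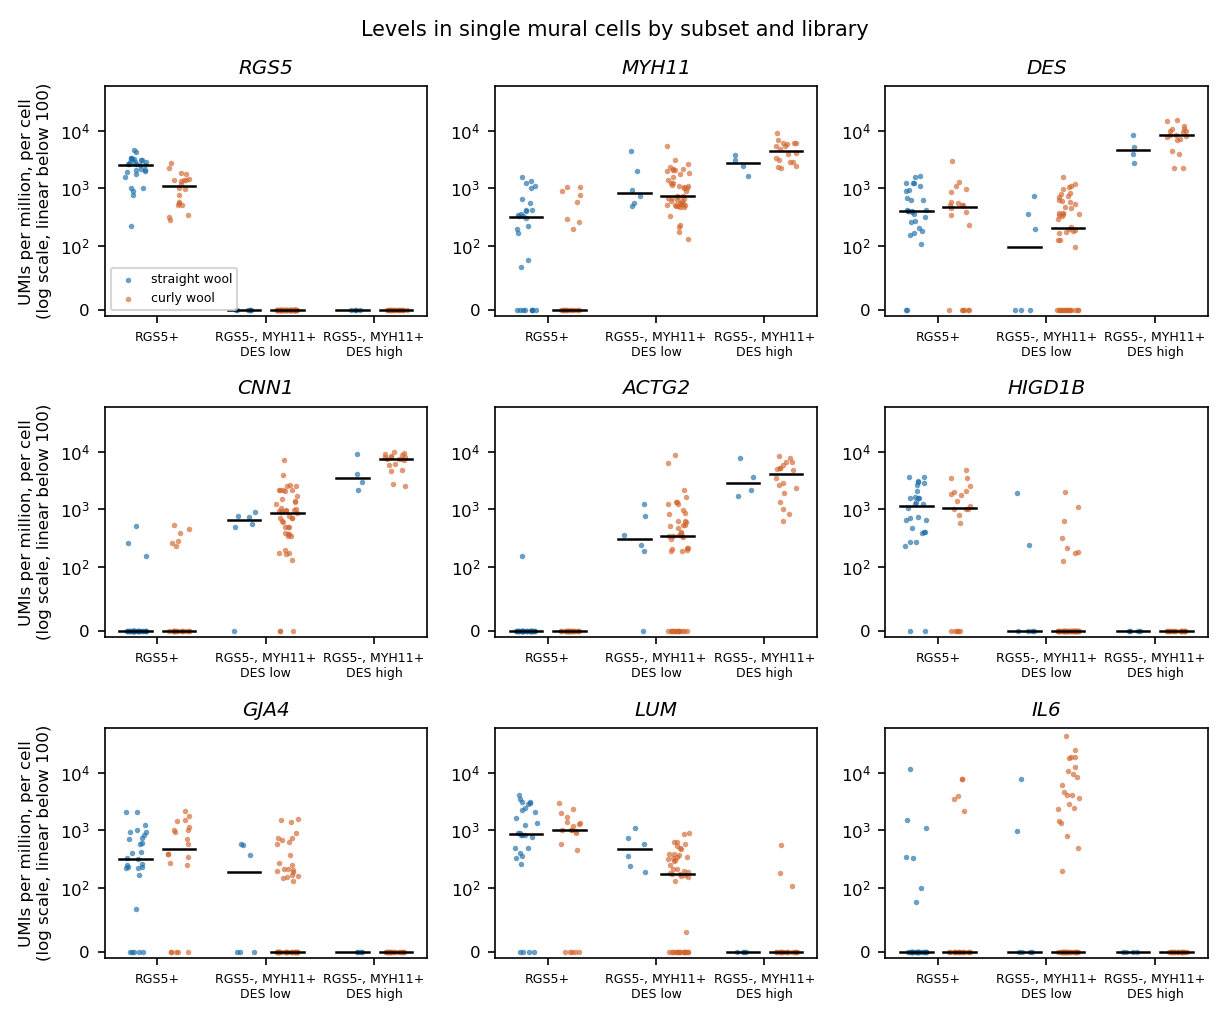
CPM in each mural cell for 9 genes, on a log scale that is linear below 100. Points are single cells of straight wool (blue) or curly wool (orange), and black lines are medians, for 28 and 20 RGS5-positive, 6 and 46 DES-low and 4 and 18 DES-high MYH11-positive cells. HIGD1B, GJA4 and IL6 are at 0 in all DES-high cells, and RGS5 and DES were used to form the subsets.

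MYH11-positive cells were themselves of different kinds by DES. A limit of 20 UMIs of DES per 10000 was chosen after the values were seen. It lay between 15.9, the highest value below it, and 22.7, the lowest above it, and 7 of the 74 cells were within 10 of the limit. DES-high cells numbered 4 in straight and 18 in curly wool, and DES-low cells 6 and 46. All 3 keratinocyte-rich cells were DES-low. DES-high cells were deeper, with a median of 8926 and 9201 UMIs against 4619 and 5586.

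Most contractile genes were higher in DES-high than in DES-low cells. Of 20 compared, 14 were at least 2-fold higher in DES-high than in DES-low cells in both libraries (9.58% of 595 genes compared), and the list's medians were 1.55 and 1.90 beside -0.04 and -0.14 over all genes. DES defines the split, and of the 16 contractile genes that the rule did not use 12 were higher in both libraries. Without the 3 keratinocyte-rich cells 13 of 20 were higher (9.14% of 514 genes) and 11 of the 16, and the curly wool DES-low level of CNN1 went from 1218 to 1296 CPM and that of COL4A1 from 187 to 224 CPM. CNN1 ranged from 2205 to 9272 CPM per cell with a median of 3508 in the straight wool DES-high cells, and from 2586 to 10093 with a median of 7466 in the curly wool ones. In DES-low cells the medians were 645 and 878 CPM, and the highest straight wool DES-low cell, at 895 CPM, lay below the lowest DES-high cell. In curly wool the ranges overlapped, with a DES-low cell at 7206 CPM. ACTA1, the skeletal muscle actin, was at 653 and 487 CPM in DES-high cells and had 0 and 8 UMIs in DES-low cells. SMTN, the smooth muscle protein smoothelin, was at 404 CPM (215 to 692) and 1008 CPM (852 to 1185) in DES-high cells, and in DES-low cells it had 1 UMI in straight wool (0.909 to 200 CPM) and was at 97.2 CPM (64.6 to 140) in curly wool. FLNA, which crosslinks actin, was higher by a log2 of 2.56 and 3.17, and MYLK, the kinase of the myosin light chain, by 2.82 and 2.92. The basement membrane collagen COL4A1 was at 591 CPM (356 to 923) and 727 CPM (595 to 879) in DES-high and at 179 CPM (58.3 to 419) and 187 CPM (141 to 245) in DES-low cells, with overlapping intervals in straight wool.

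The next genes were chosen after their values were seen, and of the pericyte list 1 gene, MCAM, had the 100 UMIs needed to be compared. RGS5, which the subset was defined to lack, HIGD1B, GJA4, NDUFA4L2, HEYL and PDGFRB had 0 UMIs in all 22 DES-high cells, which allows 93.3 CPM in the straight and 20.6 CPM in curly wool (3 UMIs per library). In DES-low cells GJA4 was at 251 and 201 CPM, found in 3 of 6 and 22 of 46 cells, against 0.629% and 0.782% of keratinocytes. NOTCH3 was found in 0 of 4 and 7 of 18 DES-high cells, and in 4 of 6 and 32 of 46 DES-low cells. NOTCH3 and PDGFRB are genes of the rule. The 18 MYH11-positive cells without DES, all of them DES-low, could be members only with NOTCH3 or PDGFRB, as they lack RGS5. Every DES-high cell met the count of mural genes with MYH11 and DES alone. The lower detection of NOTCH3 and PDGFRB in DES-high than in DES-low cells is therefore in part set by the rule. SNCG was at 62.2 and 268 CPM in DES-high and at 3194 and 2402 CPM in DES-low cells. MGP was at 995 and 1646 CPM against 24365 and 10849. The curly wool DES-low cells other than the 3 keratinocyte-rich ones had 255 CPM of GJA4, 2811 CPM of SNCG and 12870 CPM of MGP. EDNRA was at 82.3 CPM (42.5 to 144) in curly wool DES-high cells and 274 CPM (217 to 342) in curly wool DES-low cells, while in straight wool it was at 93.3 CPM (19.2 to 273) and 431 CPM (223 to 752), intervals that overlapped. MCAM, at 404 and 631 CPM in DES-high and 251 and 316 CPM in DES-low cells, and PLN, at 1182 and 1735 against 1005 and 1697 CPM, did not follow this order. Whether DES-high cells are of vessels cannot be told from these genes, and they are called here by DES, CNN1 and ACTG2.

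Immediate early genes, which respond within minutes to stimuli that include tissue dissociation, were at least 2-fold lower in DES-high cells for 5 of 12 compared in both libraries, where 11.1% of the 595 genes were. This was 4 of 11 without the 3 keratinocyte-rich cells, where 11.9% of 514 genes were. The list's medians were -0.59 and -1.52. NR4A1, a nuclear receptor, had 2 UMIs in straight wool DES-high cells (7.53 to 225 CPM) and was at 41.2 CPM in curly wool ones, against 467 and 600 CPM in DES-low cells. JUNB, a subunit of the AP-1 transcription factor, had log2 differences of -1.27 and -1.47, whereas the heat shock gene HSPB1, on the same list, was higher by 1.14 and 1.05. IL6, a cytokine, had 0 UMIs in all 22 DES-high cells. In DES-low cells it was at 1687 and 4102 CPM, found in 2 of 6 and 22 of 46 cells, with a highest single cell of 7867 CPM in the straight and 43334 CPM in curly wool. ADAMTS4, a protease of matrix proteoglycans, was at 3732 and 1857 CPM in DES-low and had 8 and 7 UMIs in DES-high cells. Curly wool DES-low levels without the 3 keratinocyte-rich cells were 5192 CPM for IL6 and 2350 CPM for ADAMTS4. The plot of levels per cell shows most DES-low cells at 0 for IL6 and the rest spread over a wide range. Whether the time in dissociation has a part in these levels was not tested.

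Between wool types, the log2 ratio (curly over straight) had a median of -0.07 over the 883 genes, and a standard deviation of 1.04 across genes. Of these genes, 82 (9.29%) were at least 2-fold higher and 49 (5.55%) at least 2-fold lower in curly wool. Scaling by trimmed means in place of total UMIs moved the median by 0.30, so that 80.2% rather than 62.6% of the genes past 2-fold were higher in curly wool. Every ratio of all mural cells is 0.30 higher on that scale, which turns the sign of the medians and genes between -0.30 and 0 below. Leaving out the 3 keratinocyte-rich cells gave 71 higher (8.84%) and 49 lower (6.1%) of 803 genes.

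Contractile genes were higher in curly wool when all mural cells were summed. All 20 compared were above 0, 8 of them at least 2-fold (9.29% of 883 genes). Their median was 0.95, beside a median of 0.71 for the same genes in all other cells of the 2 libraries. The list includes ACTA2, ACTG2, DES and MYH11, which are genes of the rule or of the subsets. Of these, DES, at 1.28, and ACTG2, at 1.47, were past 2-fold. The counts of this list below keep these genes where they were compared. TAGLN was higher by a log2 of 1.23 (1.13 to 1.33), CNN1 by 1.72 (1.49 to 1.95) and MYL9 by 1.18 (1.06 to 1.31). A single cell held 53.6% of the straight wool UMIs of CNN1, and without it the straight wool level was 427 CPM and the ratio 2.75. Without the 3 keratinocyte-rich cells 11 of the 20 were at least 2-fold higher (8.84% of 803 genes). The size also moved with the rule. With at least 3 of 5 mural genes required, the ratio was 5.51 for CNN1, 6.26 for ACTG2, 1.90 for TAGLN, 1.82 for MYL9 and 1.25 for ACTA2. In other cells TAGLN was at 226 CPM in the straight and 568 CPM in curly wool, and in mural cells it was at 4534 and 10656 CPM. The subsets gave the following values. In RGS5-positive cells 0 of 8 contractile genes compared were 2-fold higher or lower (7.8% and 8.81% of 295 genes), with a median of -0.29. In MYH11-positive cells 0 of 20 were (9.75% and 2.18% of 595 genes), with a median of -0.00. In DES-low cells 0 of 15 were (11.8% and 4.97% of 382 genes) with a median of -0.06, and in DES-high cells 1 of 18 was higher and 0 were lower (9.21% and 1.26% of 239 genes) with a median of 0.52, where 17 of the 18 were above 0 and the list's median in other cells was 0.75. Without the 3 keratinocyte-rich cells 2 of 15 were higher in DES-low cells (35 of 317 genes), with a median of 0.14. CNN1 differed by 0.12 (-0.10 to 0.36) in MYH11-positive cells, and by 0.53 (0.29 to 0.78) in DES-high cells. In DES-low cells it was at 610 CPM (355 to 977) in straight and 1218 (1094 to 1353) in curly wool. TAGLN differed by 0.36 in RGS5-positive and 0.35 in MYH11-positive cells, and ACTA2 by -0.20 and -0.12. DES-high cells, which had the most CNN1, were 4 of 10 MYH11-positive cells in straight and 18 of 64 in curly wool. MYL9, at -0.38 in RGS5-positive cells, and ACTG2, at -0.13 in MYH11-positive cells, had the opposite sign there. PLN and MUSTN1 were higher in curly wool within the subsets. PLN was at 347 CPM (258 to 456) and 983 CPM (743 to 1276) in RGS5-positive cells, and MUSTN1 at 361 CPM (270 to 472) and 1878 CPM (1539 to 2269). In MYH11-positive cells their ratios were 0.64 (0.27 to 1.02) and 0.67 (0.50 to 0.85).

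Pericyte genes were lower in curly wool when all mural cells were summed. Of 8 compared, 3 were at least 2-fold lower, RGS5, HIGD1B and NDUFA4L2 (5.55% of 883 genes). The list's median, which keeps genes of the rule, was -0.68. Of the 6 compared outside the rule, HIGD1B and NDUFA4L2 were past that limit. RGS5, a gene of the rule, was at 1403 CPM in the straight and 135 CPM in curly wool. HIGD1B was at 749 CPM and 237 CPM, a log2 of -1.66 (-2.02 to -1.30), yet within RGS5-positive cells its ratio was 0.72 (0.33 to 1.11). NDUFA4L2 was at 1088 and 86.5 CPM, a log2 of -3.65 (-4.16 to -3.18), the lowest ratio of the genes compared that had a name. It stayed lower within RGS5-positive cells at 1463 CPM (1274 to 1672) against 492 CPM (327 to 710). In all other cells its ratio was 0.32. CCND1, a cyclin of the start of the cell cycle, had a ratio of -2.87 in all mural cells and of -1.39 in RGS5-positive cells, against -0.08 in other cells. APOE was at 5751 and 1448 CPM, a log2 of -1.99, but differed by -0.05 within RGS5-positive cells, and LUM differed by -0.14 there after -1.75 in all mural cells.

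**Figure D4:**
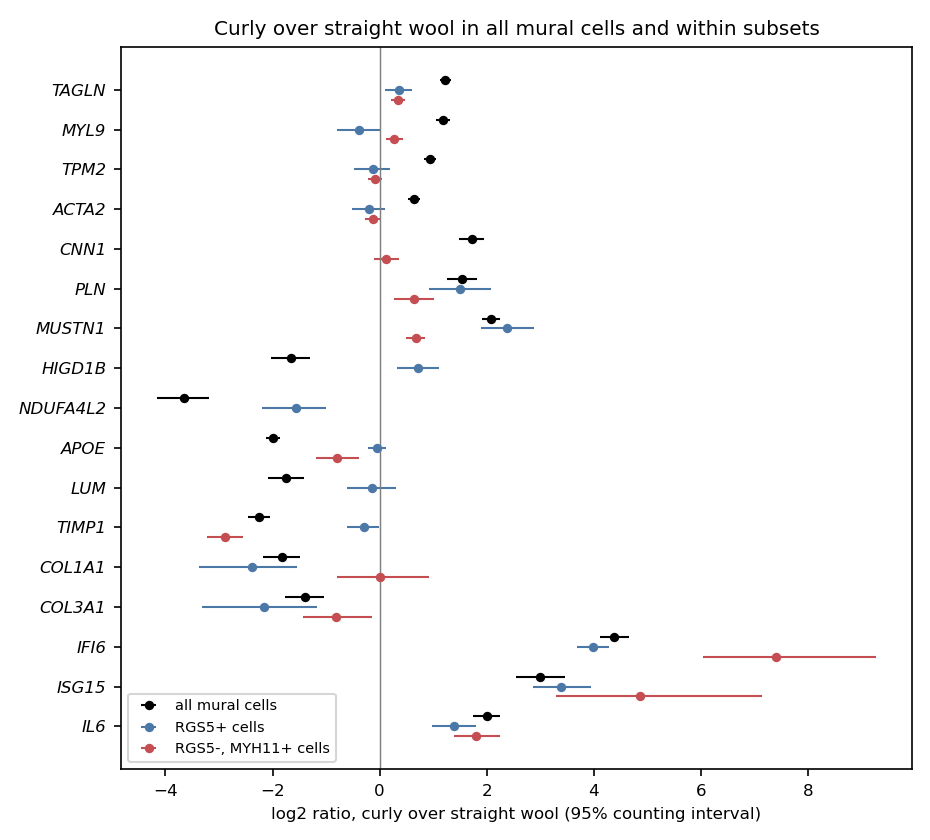
Log2 ratio of curly over straight wool for 17 genes, in all mural cells (black), RGS5-positive cells (blue) and MYH11-positive cells without RGS5 (red). Bars are exact 95% counting intervals, and a subset is left out where a gene had fewer than 100 UMIs in it. CNN1 lies at 1.72 in all mural cells and 0.12 within MYH11-positive cells, whereas IFI6 lies at 4.38, 3.98 and 7.40 in the 3 sets of cells.

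Matrix genes were at least 2-fold lower in curly wool for 9 of 18 compared and higher for 0, beside 5.55% and 9.29% of 883 genes. Their median was -1.04, against -0.45 for these genes in other cells. Without the 3 keratinocyte-rich cells 1 was higher and 9 were lower (8.84% and 6.1% of 803 genes), with 3 above 0 and a median of -0.87. In RGS5-positive cells 1 of 13 was higher and 5 were lower (7.8% and 8.81% of 295 genes), with a median of -0.65. In MYH11-positive cells 0 of 12 were higher and 2 lower (9.75% and 2.18% of 595 genes), with a median of -0.32. DES-low cells had 0 of 6 higher and 3 lower (11.8% and 4.97% of 382 genes), with a median of -0.40. Without the keratinocyte-rich cells 1 of the 6 was lower, as were 8 of 317 genes. DES-high cells went the other way, with 4 of 5 above 0 and a median of 0.73. In them 1 of the 5 was past 2-fold (9.21% of 239 genes were higher). The fibroblast or papilla list, which shares COL1A1, COL1A2, COL3A1 and LUM with the matrix list, was lower in 4 of 4 compared, with a median of -1.72 in mural and -1.29 in other cells. Its summed level was 2816 CPM in the straight and 867 CPM in curly wool mural cells, and fibroblast or papilla cells were 18.5% and 7.49% of the libraries. Their part in the result was not tested. TIMP1, an inhibitor of matrix proteases, was at 2663 CPM in the straight and 559 CPM in curly wool, a log2 of -2.25 (-2.46 to -2.04). It differed by -0.30 in RGS5-positive cells and by -2.89 in MYH11-positive cells, and in DES-low cells by -3.70. COL1A1 had ratios of -1.82 in all mural cells, -2.39 in RGS5-positive cells, 0.01 in MYH11-positive cells and -1.28 in other cells, and the mean of the CPM of single mural cells gave -0.78. COL4A1 differed by -0.87 in summed mural cells and by -0.02 in that mean. COL6A1 and COL6A2, collagen chains of the pericellular matrix, had ratios of -1.71 and -1.81, beside ratios of -2.18 and -2.12 in other cells. The proteoglycan DCN was the 1 matrix gene above 0, at 496 and 945 CPM, with ratios of 0.93 in mural and 0.85 in other cells. Of the 15 genes with the lowest ratios, 12 were also lower in the other cells of curly wool, among them the growth factor IGF2, with a log2 of -1.95 in mural and -1.93 in other cells. Within MYH11-positive cells the ratio of IGF2 was 0.28 (-0.55 to 1.23).

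Interferon-induced genes were higher in curly wool, in mural cells as in all other cells. All 4 with at least 100 UMIs were past 2-fold (9.29% of 883 genes), with a median of 4.63 beside 3.59 in other cells. So were 2 of 2 compared in RGS5-positive (7.8% of 295 genes) and 4 of 4 in MYH11-positive cells (9.75% of 595 genes). IFI6, a mitochondrial protein induced by interferon, was at 544 CPM (449 to 654) in the straight and 11299 CPM (11006 to 11599) in curly wool mural cells, and at 71.7 and 4069 CPM in all other cells. It was found in 21 of 39 straight wool and 86 of 86 curly wool members. A single cell held 44.7% of the straight wool UMIs, and without it the straight wool level was 320 CPM and the log2 ratio 5.14. Among KRT5-positive keratinocytes it was found in 6.29% and 92.5% of cells. In curly wool the level per cell ran from 1082 CPM upwards, so that no member was at 0. In RGS5-positive cells IFI6 was at 735 and 11567 CPM, and in MYH11-positive cells it had 4 UMIs in straight wool (18.2 to 171 CPM) and was at 11235 CPM in curly wool. Curly wool endothelial cells, at 11438 CPM, and fibroblast or papilla cells, at 14681 CPM, were at a similar level. ISG15, a ubiquitin-like protein, was at 200 and 1593 CPM, with 45.2% of the straight wool UMIs in 1 cell, MX1, a GTPase with antiviral activity, at 14.3 and 420 CPM, and IFIT1, an RNA-binding protein of the same response, at 9.54 and 340 CPM. MX1 and IFIT1 had 3 and 2 UMIs in straight wool, so their log2 ratios of 4.88 (3.31 to 7.17) and 5.15 (3.28 to 8.21) are loosely set. Among curly wool mural cells, DES-high cells had more MX1, at 892 CPM (745 to 1059), than DES-low cells, at 201 CPM (153 to 260), and IFIT1 was at 748 and 146 CPM. IFI6 did not share this order, with curly wool medians per cell of 8454 CPM in DES-high and 13447 CPM in DES-low cells. Of the 4 genes, 0 were 2-fold higher or lower in DES-high cells in both libraries, and the list's medians were -1.79 in straight and 1.36 in curly wool. In other cells ISG15 was at 16.7 and 180 CPM, MX1 at 6.39 and 67.4 CPM and IFIT1 at 1.63 and 21.8 CPM, so the difference between the libraries was not particular to mural cells.

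**Figure D5:**
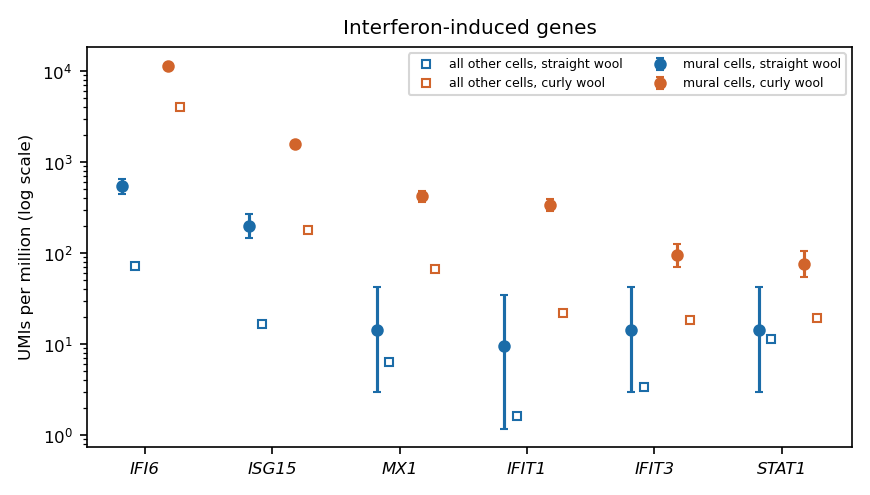
Levels of 6 interferon-induced genes in CPM on a log scale, in mural cells (filled circles with exact 95% Poisson intervals) and all other cells (open squares) of straight wool (blue) and curly wool (orange). IFI6 was at 544 and 11299 CPM in mural cells and at 71.7 and 4069 CPM in other cells.

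IL6 was the 1 chemokine or cytokine of 17 listed that had at least 100 UMIs. It was at 697 CPM (588 to 819) in the straight and 2778 CPM (2633 to 2928) in curly wool, a log2 of 2.00 (1.75 to 2.25), while its ratio in other cells was -0.79. It was found in 9 of 39 and 28 of 86 members, against 2.16% and 2.28% of KRT5-positive keratinocytes. A single cell held 50.7% of the straight wool and 16.1% of the curly wool UMIs, and without that straight wool cell the ratio was 2.97. Within RGS5-positive cells the ratio was 1.38 (0.97 to 1.80), and within DES-low cells 1.28 (0.86 to 1.74), or 1.62 without the keratinocyte-rich cells. These ratios rest largely on 1 straight wool cell each. It held 74 IL6 UMIs among RGS5-positive cells, where the next held 14, and 42 among DES-low cells, where the next held 5. Endothelial cells also held IL6, at 247 and 297 CPM. In all mural cells summed, immediate early genes did not differ by 2-fold in any of the 15 compared, with a median of -0.25 beside -0.07 over all genes and -0.21 for the list in other cells. In RGS5-positive cells 2 of 10 were at least 2-fold higher (7.8% of 295 genes) and 9 were above 0, with a median of 0.37. In MYH11-positive cells 1 of 12 was higher and 2 were lower (9.75% and 2.18% of 595 genes). In DES-low cells 2 of 11 were higher and 1 was lower (11.8% and 4.97% of 382 genes). The vasoactive receptor EDNRA differed by -0.29 (-0.72 to 0.15) and NOTCH3 by -0.37 (-0.93 to 0.21), intervals that include 0. Counting error alone allows differences of this size in either direction up to those bounds.

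Among the 15 genes with the highest ratios, 10 had over 50% of their curly wool UMIs in 1 cell. KRTDAP, CDSN, SPINK5, SBSN and DMKN, genes of the upper epidermis, were among them, and 1 cell held 93.3% of the 1546 KRTDAP UMIs. Without the 3 keratinocyte-rich cells the log2 ratio of KRTDAP went from 5.10 to 1.25 and that of SPINK5 from 4.81 (2.93 to 7.87, on 2 straight wool UMIs) to -0.06, beside 1.30 for each in other cells. IFI6, at 4.38 with and 4.49 without those cells, changed little, as did the median of the contractile list, at 0.95 and 1.08.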

How the data were processed

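Single-cell RNA-seq had been run on 2 libraries, straight wool and curly wool, of 3 pooled lambs each, grouped by the labels. The authors aligned reads to the sheep genome Oar_rambouillet_v1.0 with Cell Ranger, for which the submitters' notes give version 3.0.2 and the study's methods another, and used Seurat. The authors deposited natural log values, ln(1 + UMIs per 10000 UMIs of the cell), for 18161 genes and 14037 cells. From these, UMIs were recovered. All 28552149 values above 0 came out whole within 0.01 (100%), and no test was run, since each group is 1 library.

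UMIs were summed over the cells of a population and library and given per 1000000 (CPM), with exact Poisson intervals for levels, exact binomial intervals for ratios and Clopper-Pearson intervals for shares, at 95%. A level of 0 allows 3 UMIs. The design had assumed counts and was applied to the recovered UMIs. Genes with at least 100 UMIs were compared, at 2-fold between wool types or subsets and 4-fold between mural and all other cells. The limit against KRT5-positive contractile cells was 2-fold. Endothelial cells held at least 3 of the 6 endothelial genes of the rule, and fibroblast or papilla cells at least 4 genes of their list. The computation was checked on simulated data. Scripts used scanpy 1.11.5 for doublet scores, matplotlib 3.10.9 for plots, pandas 2.3.3 with numpy 2.4.6 for sums and scipy 1.17.1 for intervals, under Python 3.11.15.

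Named are members of the gene lists, the 15 genes with the highest and the 15 with the lowest curly over straight ratio, and the 15 with the largest excess in mural cells. Symbols starting with LOC were named where NCBI RefSeq (ARS-UI_Ramb_v3.0) pairs them with a name, as for 331 of 3912. The 96 of the 883 genes compared that had no such name were left out of these rankings. Members and lists were chosen with earlier results of these data known. The division by DES, the removal of keratinocyte-rich cells and the grouping of all RGS5-positive cells were chosen after seeing the data. Alternatives are given at the end. Doublets were not removed in the values given, as the automatic limit of Scrublet called 0.427% of cells, too few to be of use, so the 6% with the highest scores in each library were left out as an alternative. Levels of different genes depend on how each transcript is captured and are not compared with each other.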

Additional observations from a re-analysis of the deposited data

How the results depend on the processing

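No paired analysis was possible because each wool type is 1 library of pooled lambs, and no replicate could be left out for the same reason. The limits are therefore those of 2 libraries, of 39 and 86 cells and of counting error, and the cause of each change below was not tested. The share of mural cells in straight wool went to 0.328% with the study's minimum number of genes per cell. In curly wool it went to 0.509% with that minimum, to 0.527% with at least 3 of 5 mural genes and to 0.76% after thinning to 2000 UMIs. In straight wool the 3-gene rule gave 0.434% and the thinning 0.554%.

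Of the 82 genes at least 2-fold higher and 49 lower in curly wool, scaling by trimmed means left 26 lower. A minimum of 20 UMIs gave 326 higher and 375 lower, and no minimum, for genes with a UMI in both libraries, 992 and 2289. The share higher among them went from 62.6% to 46.5% and 30.2%. RGS5-positive cells without MYH11 gave 6 higher and 3 lower of 119 genes, all RGS5-positive cells 23 and 26, MYH11-positive cells without RGS5 13 lower, and their DES-low part 45 and 19. With at least 3 of 5 mural genes, 70 rather than 123 genes were 4-fold higher and 9 rather than 15 lower in mural than in other cells. After thinning, 17 rather than 44 genes were higher and 21 rather than 59 lower in RGS5-positive than in MYH11-positive cells, of 262 rather than 877 compared, and without DES-high cells these were 28 and 33. In RGS5-positive cells the ratio of curly over straight wool turned to -0.38 for MYL9 and 0.72 for HIGD1B. In MYH11-positive cells without RGS5 it turned to -0.13 for ACTG2, 0.01 for COL1A1 and 0.28 for IGF2, and IGF2 was at 0.00 in the DES-low part. The 6% of cells with the highest doublet scores held 1 straight and 7 curly wool members, the 3 keratinocyte-rich cells among them.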
